A study of Mus musculus with 7 samples.

Results

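Genes of hepatic stellate cells and of the extracellular matrix were followed in RNA from isolated mouse hepatocytes, the parenchymal cells of the liver. The set was a fixed list of 39 gene symbols, of which 37 were among the 12151 genes of the deposited table, and all 37 passed the filter on low values. Acta2 and Timp1, an actin and a protease inhibitor, were not analysed here. The libraries fell into 2 groups, 3 from wild-type (WT) mice with no treatment named and 4 labelled ALAS1/2-KO with tamoxifen as the treatment. Per the series' design text, the mutant mice carried an allele of Alas1 from which Cre can remove exons 4 and 5, and Alas2 was lowered with injected siRNA coupled to GalNAc, a sugar that hepatocytes take up. ALAS1 and ALAS2 make aminolevulinic acid, the entry step of heme synthesis. The sources used here do not name the Cre driver, the age or the sex of the animals. Genotype, siRNA and tamoxifen went together and cannot be told apart. No label ties the replicates to separate animals. The p-values therefore describe the spread among these 7 libraries, part of which may be technical.

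Stellate cells lie between the hepatocytes and the sinusoidal endothelium of the liver. At rest they store vitamin A as retinyl esters and express Lrat, Reln, Des and Hand2. In liver injury they turn into myofibroblasts that secrete fibrillar collagens, and platelet-derived growth factor and transforming growth factor beta are their best known signals. Collagen IV, laminin and nidogen form basement membranes, and small leucine-rich proteoglycans such as decorin and lumican bind collagen fibrils.

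Promoters are shown for 4 genes, Reln, Rgs5, Ecm1 and Lamb1, whose levels relative to decorin (Dcn) did not overlap between the groups, as described further on. Each run is the part of the promoter that lies before the annotated gene start, in lower case and 5′ to 3′, from RefSeq (GRCm38.p6). Capitals mark matches, on either strand, to the TATA box (TATAAA), to the CCAAT box and to the motif of AP-1 factors (TGANTCA). The windows are Reln (chr5:22344706-22344955, minus strand), Rgs5 (chr1:169655251-169655500, plus strand), Ecm1 (chr3:95739570-95739819, minus strand) and Lamb1 (chr12:31265043-31265233, plus strand).
Reln: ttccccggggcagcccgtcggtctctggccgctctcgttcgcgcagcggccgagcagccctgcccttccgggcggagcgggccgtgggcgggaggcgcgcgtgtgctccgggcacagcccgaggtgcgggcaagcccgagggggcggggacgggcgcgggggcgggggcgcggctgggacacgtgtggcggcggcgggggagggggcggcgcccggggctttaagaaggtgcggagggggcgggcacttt
Rgs5: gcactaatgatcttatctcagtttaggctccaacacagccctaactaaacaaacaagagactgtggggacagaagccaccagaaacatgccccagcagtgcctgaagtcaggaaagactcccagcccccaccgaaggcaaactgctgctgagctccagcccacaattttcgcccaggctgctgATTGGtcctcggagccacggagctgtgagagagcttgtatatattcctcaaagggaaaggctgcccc
Ecm1: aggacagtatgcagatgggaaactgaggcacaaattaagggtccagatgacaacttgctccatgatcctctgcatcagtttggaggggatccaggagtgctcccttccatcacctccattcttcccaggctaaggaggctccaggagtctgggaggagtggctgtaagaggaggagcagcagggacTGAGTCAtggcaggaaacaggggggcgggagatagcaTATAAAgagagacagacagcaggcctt
Lamb1: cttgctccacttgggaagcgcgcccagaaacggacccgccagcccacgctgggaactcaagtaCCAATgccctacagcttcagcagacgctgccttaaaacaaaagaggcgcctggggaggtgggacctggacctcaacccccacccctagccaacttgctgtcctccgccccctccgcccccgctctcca
The Reln window held no match. Rgs5 had a CCAAT box on the reverse strand, first base at -67 from the RefSeq start, and Lamb1 had one at -187. Ecm1 had the AP-1 motif at -64 and a TATA box at -27. RefSeq promoters were found for 26 of the genes, in 28 windows of 250 bases before the start. The TATA box was in 3 of the 28 windows (10.7%) and in 12.4% of all 32851 windows in the table. The CCAAT box was in 11 (39.3%, against 33.8%) and the AP-1 motif in 2 (7.1%, against 6.7%). The CArG box, bound by serum response factor, was in 0, against 1.5% of all windows. These shares are descriptions of letters in a window, and no binding was measured.

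The libraries held 22916097 to 34048680 reads over the listed genes in WT and 27933939 to 30195635 in ALAS1/2-KO. A single read corresponded to between 0.0293 and 0.0522 CPM, the unit of the levels given here, in which read counts are scaled to library size. Alas2 read 6.65 to 16.9 CPM in WT and 0.20 to 0.80 CPM in ALAS1/2-KO. Alas1 transcripts read 83.5 to 279.6 CPM in WT and 287 to 361 CPM in ALAS1/2-KO. A count over the whole gene does not check a deletion of 2 of its exons. Mitochondrial transcripts took 31.9% to 43.2% of the reads in WT and 16.8% to 27.3% in ALAS1/2-KO. Of 12105 genes tested with limma, 265 (2.19%) were lower and 352 (2.91%) higher in ALAS1/2-KO at an adjusted p under 0.05. With the values rescaled to the listed reads the split was 202 lower and 2533 higher, and with scaling that left out mitochondrial genes and the 20 most abundant genes it was 324 lower and 238 higher.

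Every stellate and matrix gene averaged less in the ALAS1/2-KO libraries, and none passed the test. By limma, 0 of the 37 genes were lower and 0 were higher at an adjusted p under 0.05, and limma voom on the recovered reads also gave 0 in either direction (2.53% of all genes were called lower and 2.71% higher by voom). At an unadjusted p under 0.05, 22 of the 37 were lower, against 11.9% of all genes tested. The log2 fold change, ALAS1/2-KO minus WT, was below 0 for 37 of 37 genes (52.0% of all genes), although Fn1 and Lamc1 turned above 0 when CPM was rescaled to the listed reads, as did Lamc1 with array weights or without ALAS1/2-KO libraries 1 and 2. It was below -1 for 32 of 37 (5.58% of all genes). The median log2 fold change was -1.24, beside -0.02 over all genes tested, and ranged from -1.75 for Cygb to -0.22 for Fn1. The median was -0.62 with array weights and -0.61 without ALAS1/2-KO libraries 1 and 2. For 10 genes every ALAS1/2-KO library was below every WT library, which held for 11.4% of all genes tested, and for 0 genes was every ALAS1/2-KO library above. With CPM rescaled to the listed reads the count of 10 became 0, and the share of all genes became 2.77%. The smallest adjusted p values were 0.0823 for Cygb, 0.0839 for Col4a2 and 0.0894 for Ngfr. Leaving out ALAS1/2-KO library 1 brought Col4a2 (adjusted p = 0.0458) and Cygb (adjusted p = 0.0354) past the limma threshold. Leaving out ALAS1/2-KO library 3 did so for Col4a1 (adjusted p = 0.0487), Lum (0.0403), Cygb (0.0459) and Hgf (0.0499). In RNA from a cell preparation, fewer stellate cells and less RNA per stellate cell cannot be told apart.

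**Figure D1:**
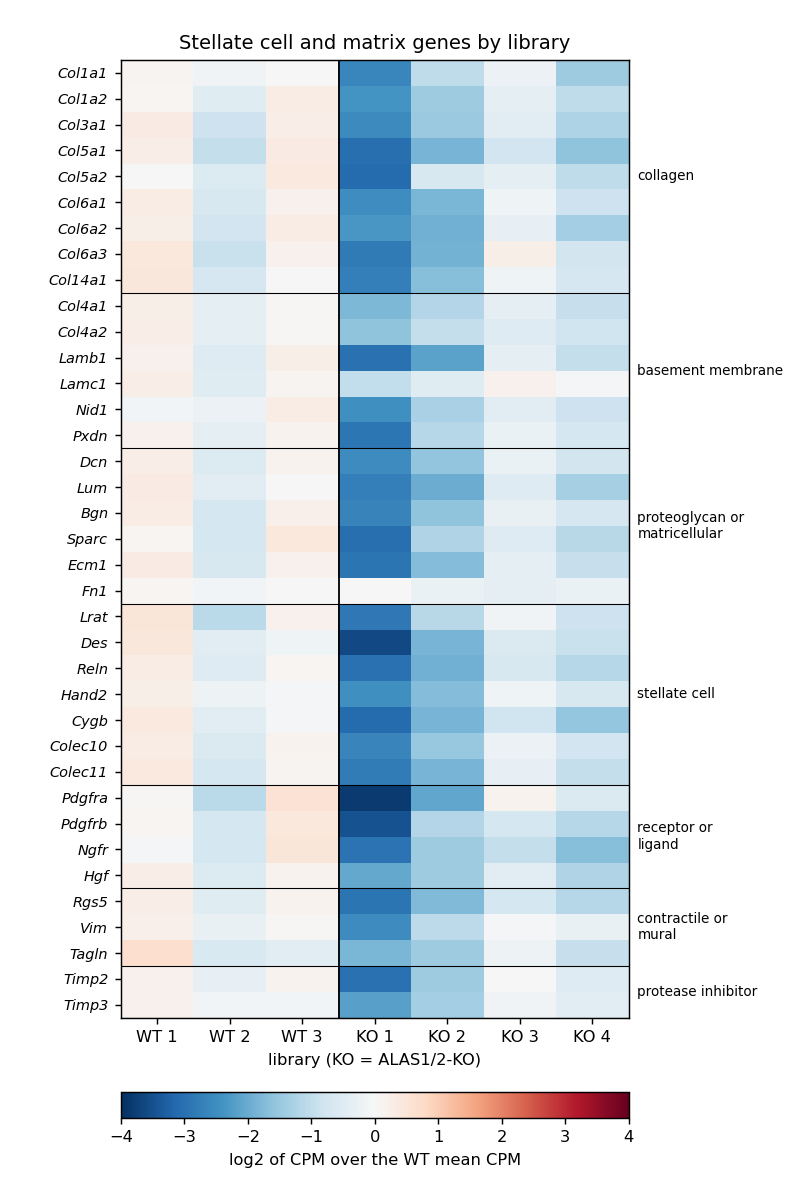
Level of each of the 37 genes in each library, as log2 of its CPM over the mean CPM of the 3 WT libraries; rows are genes grouped by role and columns are libraries (KO, ALAS1/2-KO). Blue is below and red above the WT mean; ALAS1/2-KO library 1 is the darkest column, with a median of 15.1% of the WT mean, and Fn1 and Lamc1 are the palest rows.

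Libraries of the same group differed widely from each other. Relative to its WT mean, the median gene stood at 120.0%, 68.8% and 110.3% in WT libraries 1 to 3. In ALAS1/2-KO libraries 1 to 4 the medians were 15.1%, 35.8%, 78.4% and 53.1%. The order within ALAS1/2-KO was library 3, then 4, then 2, then 1 from high to low for 33 of the 37 genes. Library 1 was lowest of all 7 for 36 genes, the exception being Fn1, which was lowest in ALAS1/2-KO library 3. Within WT, library 2 was the lowest for 36 genes, with library 1 above library 3 for 26 of them and below it for 10. Without WT library 2 the count of genes with no overlap was 33, beside 14.7% of all genes. Without ALAS1/2-KO library 3 it was 29, beside 14.9%, and without ALAS1/2-KO library 1 it was 11, beside 13.8%.

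Among the genes that mark resting stellate cells, Cygb, Reln and Des had no overlap between the groups, 3 of 7. Of all genes tested, 11.4% were lower without overlap, the share to set beside the genes without overlap in this and the next groups. Cygb (ENSMUSG00000020810, chr11:116645595-116654313, minus strand) encodes cytoglobin, a heme-containing globin of stellate cells. Cygb read 9.45, 5.40 and 6.82 CPM in WT libraries 1 to 3 and 0.85, 2.00, 4.13 and 2.47 CPM in ALAS1/2-KO libraries 1 to 4. All ALAS1/2-KO libraries were below the lowest WT library, and the log2 fold change was -1.75 ± 0.48 (SE; adjusted p = 0.0823), the largest of the 37. Of its exon bases, 8.6% are shared with Prcd on the other strand, and the sources used here do not say how strand was handled in counting. Reln (ENSMUSG00000042453, chr5:21884454-22344702, minus strand) encodes reelin, a secreted glycoprotein. Its levels were 52.6, 29.8 and 45.2 CPM in WT and 5.41, 11.1, 27.1 and 19.5 CPM in ALAS1/2-KO, with ALAS1/2-KO library 3 just under WT library 2. Reln had a log2 fold change of -1.63 ± 0.53 (SE; adjusted p = 0.126). Des (ENSMUSG00000026208, chr1:75360329-75368579, plus strand), the intermediate filament desmin, read 7.67, 4.05 and 4.92 CPM in WT and 0.45, 1.54, 3.73 and 2.97 CPM in ALAS1/2-KO. ALAS1/2-KO library 1 had the lowest Des level and library 3 the highest of its group, at 3.73 against 4.05 CPM in WT library 2. For Des the log2 fold change was -1.62 ± 0.67 (SE; adjusted p = 0.197).

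The other 4 genes of this group overlapped between the groups. Lrat, the enzyme that esterifies retinol for storage, averaged 12.1 ± 5.73 CPM in WT against 6.23 ± 3.79 CPM in ALAS1/2-KO (means ± SD, n = 3 and n = 4, as for the means that follow), with a log2 fold change of -1.08 ± 0.65 (SE; adjusted p = 0.358). Hand2, a transcription factor of stellate cells, averaged 4.48 ± 0.751 CPM in WT against 2.27 ± 1.46 CPM in ALAS1/2-KO. Of the exon bases of Hand2, 19.6% are shared with its antisense neighbour Hand2os1, so its level is uncertain. Colec10 and Colec11 encode collectins, soluble lectins of the complement system. Colec10 averaged 30.2 ± 8.93 CPM in WT against 14.8 ± 9.13 CPM in ALAS1/2-KO, and Colec11 averaged 33.7 ± 11.9 CPM in WT against 14.6 ± 9.71 CPM in ALAS1/2-KO. Their log2 fold changes were -1.23 and -1.41. Of the 7 genes of the group, 5 were lower at an unadjusted limma p under 0.05, against 11.9% of all genes tested. The group's median log2 fold change was -1.41.

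Of the receptors and ligands, Ngfr was the one without overlap. Ngfr (ENSMUSG00000000120, chr11:95568818-95587735, minus strand) encodes the p75 neurotrophin receptor of stellate cells. It read 4.49, 2.86 and 6.53 CPM in WT and 0.60, 1.72, 2.41 and 1.42 CPM in ALAS1/2-KO, so the highest ALAS1/2-KO library was below the lowest WT library. The log2 fold change of Ngfr was -1.62 ± 0.46 (SE; adjusted p = 0.0894). Pdgfrb, the receptor through which platelet-derived growth factor drives stellate cell division, read 5.69, 3.29 and 7.17 CPM in WT and 0.48, 2.37, 3.33 and 2.44 CPM in ALAS1/2-KO. Only ALAS1/2-KO library 3 reached into the WT range, at 3.33 against 3.29 CPM in WT library 2, and the log2 fold change of Pdgfrb was -1.50 ± 0.63 (SE; adjusted p = 0.202). Its paralogue Pdgfra averaged 3.01 ± 1.53 CPM in WT against 1.56 ± 1.39 CPM in ALAS1/2-KO. Pdgfra rested on 7 reads in ALAS1/2-KO library 1 and differed 15.6 times between the highest and lowest ALAS1/2-KO library, the widest of all 37 genes. Hgf, the hepatocyte growth factor that stellate and endothelial cells supply, averaged 5.81 ± 1.62 CPM in WT against 2.62 ± 1.25 CPM in ALAS1/2-KO, with a log2 fold change of -1.20 ± 0.37 (SE; adjusted p = 0.107).

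The collagens other than collagen IV had a median log2 fold change of -1.25 over 9 genes, with fitted levels 2.19 to 3.18 times lower in ALAS1/2-KO. Col1a1 (ENSMUSG00000001506, chr11:94936224-94953042, plus strand), a chain of collagen I, was the one without overlap. That is 1 of 9, close to the 11.4% of all genes tested, so the count does not set the collagens apart. Col1a1 read 2.77, 2.34 and 2.61 CPM in WT, a narrow range, and 0.42, 1.26, 2.17 and 0.96 CPM in ALAS1/2-KO. Its log2 fold change was -1.25 ± 0.47 (SE; adjusted p = 0.159). Its partner chain Col1a2 averaged 8.80 ± 2.31 CPM in WT against 4.04 ± 2.15 CPM in ALAS1/2-KO, and Col3a1, of collagen III, averaged 15.2 ± 5.84 CPM in WT against 6.42 ± 3.53 CPM in ALAS1/2-KO. Col5a1, which nucleates collagen fibrils, read 9.55, 4.09 and 9.96 CPM in WT and 0.97, 2.18, 4.64 and 2.57 CPM in ALAS1/2-KO. WT library 2 was below ALAS1/2-KO library 3, so the groups overlapped, while the log2 fold change of Col5a1, -1.67 ± 0.53 (SE; adjusted p = 0.119), was the next in size after that of Cygb. Col5a2 averaged 2.54 ± 0.781 CPM in WT against 1.29 ± 0.716 CPM in ALAS1/2-KO. The chains of collagen VI, a beaded microfibril, were Col6a1, Col6a2 and Col6a3, with log2 fold changes of -1.24, -1.38 and -1.13. Col14a1, a fibril-associated collagen, averaged 30.7 ± 11.7 CPM in WT against 15.1 ± 10.2 CPM in ALAS1/2-KO. It was the most abundant of the 9 collagens both in CPM and per kilobase of exon (4.38 CPM per kilobase in WT).

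In the basement membrane group, Col4a2 and Nid1 had no overlap between the groups. Col4a2 (ENSMUSG00000031503, chr8:11312805-11449287, plus strand) is a chain of collagen IV. Its levels were 36.4, 23.5 and 31.2 CPM in WT and 9.89, 15.5, 21.2 and 17.45 CPM in ALAS1/2-KO. All ALAS1/2-KO libraries were below WT, and differed 2.14 times among themselves, and the log2 fold change was -0.95 ± 0.26 (SE; adjusted p = 0.0839). Col4a1, transcribed head to head from the same start region, averaged 40.7 ± 8.36 CPM in WT against 20.8 ± 8.39 CPM in ALAS1/2-KO. The exons of Col4a1 and Col4a2 overlap by 22 bases (chr8:11312805-11312826). Nid1 (ENSMUSG00000005397, chr13:13437551-13512269, plus strand) encodes nidogen, which links laminin to collagen IV. It read 26.3, 24.2 and 35.4 CPM in WT and 5.23, 11.5, 21.2 and 15.96 CPM in ALAS1/2-KO, with all ALAS1/2-KO libraries lower and a log2 fold change of -1.23 ± 0.44 (SE; adjusted p = 0.156). Lamb1, the laminin beta chain, read 9.76, 6.03 and 10.1 CPM in WT and 1.09, 1.97, 6.63 and 4.49 CPM in ALAS1/2-KO. ALAS1/2-KO library 3 exceeded WT library 2, and the log2 fold change of Lamb1 was -1.54 ± 0.59 (SE; adjusted p = 0.176). Lamc1, the gamma chain that pairs with it and is made by many cell types, read 17.01, 10.1 and 15.4 CPM in WT and 7.11, 10.1, 15.9 and 13.8 CPM in ALAS1/2-KO. Its groups overlapped, with a log2 fold change of -0.30 ± 0.30 (SE; adjusted p = 0.581), which turned to 0.03 when CPM was rescaled to the listed reads. Pxdn, a heme peroxidase that crosslinks collagen IV, averaged 9.83 ± 2.02 CPM in WT against 5.01 ± 2.88 CPM in ALAS1/2-KO.

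Lumican was the one proteoglycan without overlap. Lum (ENSMUSG00000036446, chr10:97565128-97572703, plus strand) read 13.5, 8.14 and 10.9 CPM in WT and 1.63, 2.77, 7.55 and 4.35 CPM in ALAS1/2-KO. ALAS1/2-KO library 3 was just below WT library 2, and the log2 fold change was -1.58 ± 0.48 (SE; adjusted p = 0.111). Dcn (ENSMUSG00000019929, chr10:97479609-97518143, plus strand), decorin, read 171, 96.97 and 156 CPM in WT and 24.8, 47.45, 117 and 84.4 CPM in ALAS1/2-KO. Here ALAS1/2-KO library 3 exceeded WT library 2, and the log2 fold change was -1.23 ± 0.52 (SE; adjusted p = 0.205). Ecm1 (ENSMUSG00000028108, chr3:95734147-95739569, minus strand), a secreted matrix glycoprotein, read 154, 79.1 and 138 CPM in WT and 16.4, 36.8, 93.45 and 64.8 CPM in ALAS1/2-KO. The pattern over libraries was that of Dcn, and the log2 fold change of Ecm1 was -1.44 ± 0.58 (SE; adjusted p = 0.188). Biglycan (Bgn), the closest relative of decorin, averaged 92.4 ± 31.1 CPM in WT against 44.7 ± 27.6 CPM in ALAS1/2-KO. Sparc, a matricellular protein that binds collagen, averaged 96.3 ± 34.8 CPM in WT against 41.3 ± 22.7 CPM in ALAS1/2-KO.

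Fn1 (ENSMUSG00000026193, chr1:71585520-71653200, minus strand) stood apart from the other genes in level and in pattern. It encodes fibronectin, which hepatocytes themselves secrete into plasma. Fn1 read 1953, 1714 and 1864 CPM in WT and 1833, 1546, 1445 and 1526 CPM in ALAS1/2-KO. ALAS1/2-KO library 1, the lowest for the other 36 genes, had the highest Fn1 of its group and lay within the WT range. The log2 fold change of Fn1 was -0.22 ± 0.12 (SE; adjusted p = 0.297), and it was 0.12 with CPM rescaled to the listed reads. Per kilobase of exon, mean WT levels in descending order were 158 CPM for Fn1, 49.1 for Ecm1, 25.4 for Sparc, 24.2 for Dcn, 20.8 for Colec11, 15.2 for Bgn and 9.95 for Rgs5. Ecm1 and Sparc, Sparc and Dcn, Dcn and Colec11, and Colec11 and Bgn are neighbours in this order, and the WT libraries differ 1.76 to 2.17 times within each of these genes.

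Rgs5 was the one contractile or mural gene without overlap. Rgs5 (ENSMUSG00000026678, chr1:169655501-169695813, plus strand), a regulator of G protein signalling in pericytes, read 53.9, 32.3 and 49.5 CPM in WT and 6.02, 13.2, 27.8 and 20.55 CPM in ALAS1/2-KO. All ALAS1/2-KO libraries were below the lowest WT library, and the log2 fold change was -1.59 ± 0.50 (SE; adjusted p = 0.118). Vim, the intermediate filament vimentin of mesenchymal cells, averaged 25.9 ± 4.31 CPM in WT against 15.8 ± 9.08 CPM in ALAS1/2-KO. Tagln, an actin-binding protein of contractile cells, averaged 3.95 ± 2.05 CPM in WT against 2.02 ± 1.01 CPM in ALAS1/2-KO. Of the exon bases of Tagln, 67.9% are shared with Gm48529 and Pcsk7 on the other strand, so its level is uncertain. Of the inhibitors of matrix metalloproteinases, Timp3 (ENSMUSG00000020044, chr10:86300372-86349506, plus strand) had no overlap, with 17.01, 14.05 and 14.03 CPM in WT and 3.33, 5.88, 13.5 and 10.9 CPM in ALAS1/2-KO. ALAS1/2-KO library 3 was close to WT library 3, at 13.5 against 14.03 CPM, and the log2 fold change was -1.02 ± 0.45 (SE; adjusted p = 0.225). Timp3 shares 21.3% of its exon bases with Syn3, inside which it lies on the other strand. Timp2 averaged 8.90 ± 1.62 CPM in WT against 4.90 ± 3.39 CPM in ALAS1/2-KO, with a log2 fold change of -1.19.

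**Figure D2:**
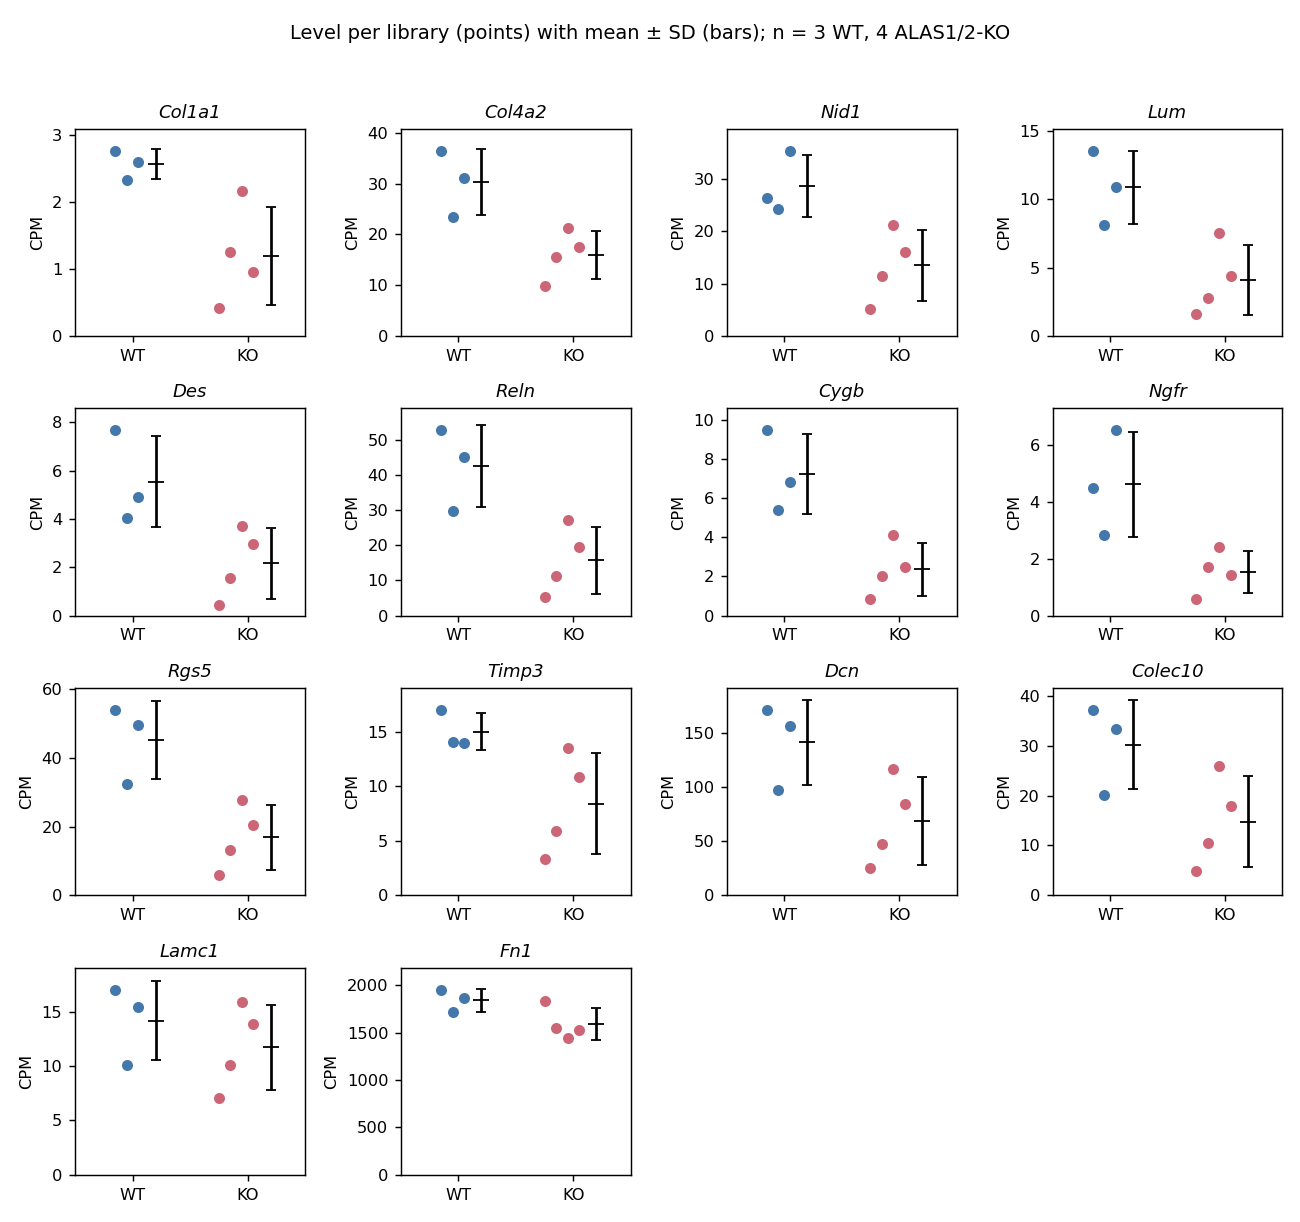
CPM in each library (points, WT blue and ALAS1/2-KO red, in replicate order from left to right) with the mean and SD of each group (black bars), for the 10 genes without overlap between the groups and for Dcn, Colec10, Lamc1 and Fn1. In the first 10 panels the highest red point is below the lowest blue point; in the last 4 the groups overlap.

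**Figure D3:**
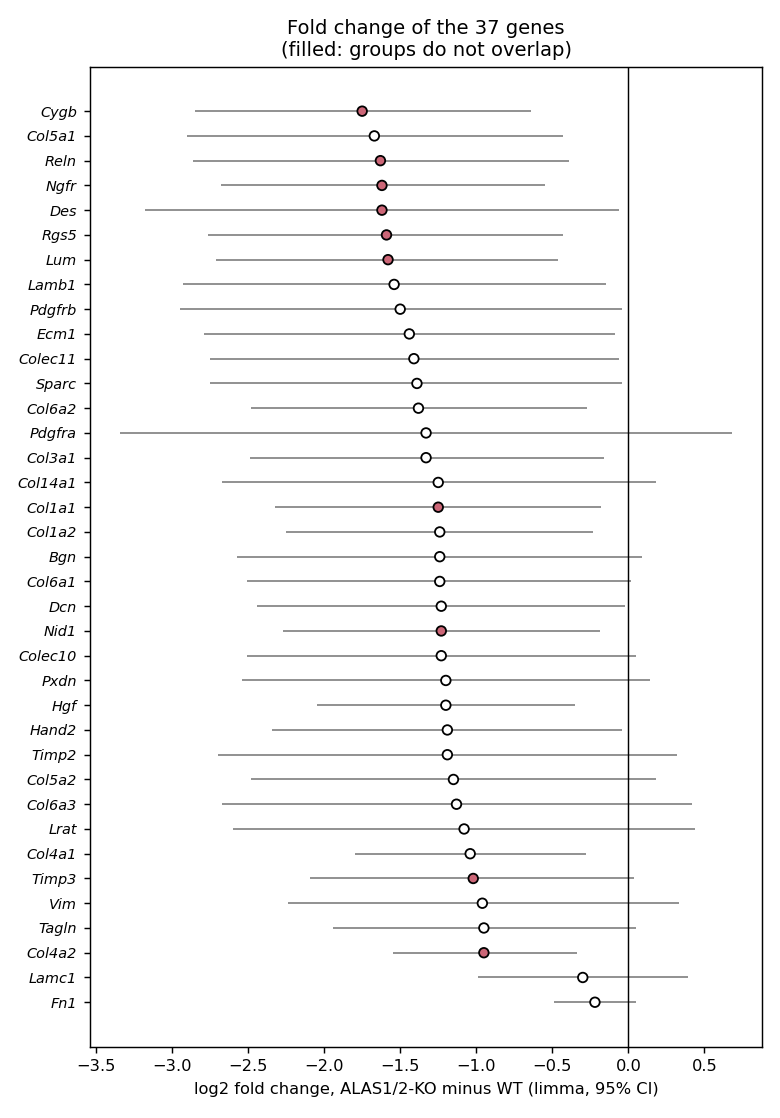
Log2 fold change, ALAS1/2-KO minus WT, of each gene by limma (points) with its 95% confidence interval (lines), sorted by size; filled points are the genes whose groups do not overlap. All 37 points are below 0, from -1.75 for Cygb to -0.22 for Fn1, and the intervals are wide.

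Because the libraries carried such different amounts of stellate transcripts, each gene was also read against Dcn in the same library, as CPM per 100 CPM of Dcn. On this scale 29 of the 36 other genes overlapped between the groups. Colec10 stayed close to a fixed proportion, at 21.7, 20.8 and 21.3 in WT and 19.6, 22.2, 22.2 and 21.1 in ALAS1/2-KO, while its CPM differed 5.33 times within ALAS1/2-KO. For 6 genes, Lamb1, Lum, Ecm1, Reln, Cygb and Rgs5, every ALAS1/2-KO library was below every WT library, which held for 44 of all 12104 genes (0.364%). Only Lamc1 of the 36 was higher in every ALAS1/2-KO library, which held for 23.3% of all genes. Dcn itself had a log2 fold change of -1.23, so a ratio to it is raised in ALAS1/2-KO for genes that do not follow Dcn. The share of 0.364% is small partly for that reason, and it is no yardstick for genes that follow Dcn. Dcn was taken as the reference with its values known, and these ratios are descriptions with no test.

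Reln read 30.8, 30.7 and 28.9 per 100 CPM of Dcn in WT and 21.8, 23.5, 23.2 and 23.0 in ALAS1/2-KO. The 4 ALAS1/2-KO values were close together although Reln itself differed 5.00 times between those libraries. Rgs5 showed a like pattern, with 31.6, 33.3 and 31.7 in WT and 24.2, 27.8, 23.8 and 24.3 in ALAS1/2-KO. Cygb read 5.53, 5.57 and 4.37 in WT and 3.41, 4.22, 3.53 and 2.93 in ALAS1/2-KO, and its groups were separated by less. Ecm1 stood at 90.0, 81.5 and 88.6 in WT and 65.9, 77.6, 79.9 and 76.7 in ALAS1/2-KO. Lum stood at 7.91, 8.39 and 6.97 and 6.58, 5.84, 6.46 and 5.16, and Lamb1 at 5.71, 6.22 and 6.47 and 4.38, 4.15, 5.67 and 5.31. For Lamb1 the nearest libraries of the groups were at 5.67 and 5.71. Lamc1 read 9.96, 10.4 and 9.86 in WT and 28.6, 21.3, 13.6 and 16.4 in ALAS1/2-KO, highest where Dcn was lowest. With Bgn as the reference, 3 genes were lower without overlap (Ecm1, Reln and Rgs5), against 0.281% of all genes. With Col14a1 there were 2 (Reln and Cygb), against 0.173%, and with Colec10 there were 5 (Lamb1, Ecm1, Reln, Cygb and Rgs5), against 0.347%. Reln was lower and Lamc1 higher with each of the 4 references. Bgn, Col14a1 and Colec10 were chosen as references after seeing the data. Their own log2 fold changes were -1.24, -1.25 and -1.23, so the small shares of lower genes are no yardstick here either. Like Dcn, they are among the 37 genes and took the same order over the ALAS1/2-KO libraries, so the 4 references are not independent.

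**Figure D4:**
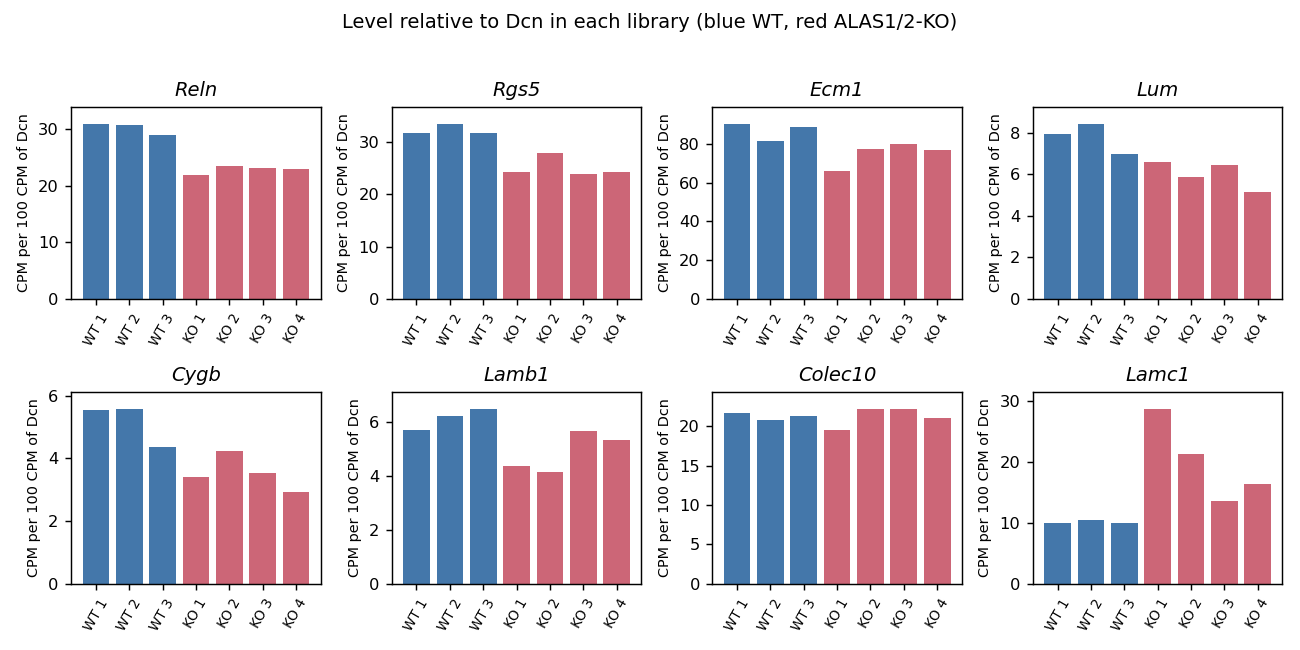
CPM of 8 genes per 100 CPM of Dcn in each library (bars; WT blue, ALAS1/2-KO red). For Reln, Rgs5, Ecm1, Lum, Cygb and Lamb1 each red bar is below each blue bar; Colec10 stays between 19.6 and 22.2 in all 7 libraries, and Lamc1 is higher in the red bars.

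Ratios between partner genes overlapped between the groups for 6 of 9 pairs. No share over other gene pairs was computed, so this count is a description. Per kilobase, Col4a1 over Col4a2 was 1.170, 1.194 and 1.203 in WT and 1.044, 1.033, 1.328 and 1.096 in ALAS1/2-KO, which overlap. The ratios of Col1a1 to Col1a2, Col6a1 to Col6a2, Col6a3 to Col6a1, Colec10 to Colec11 and Pdgfrb to Pdgfra also overlapped. Lamb1 over Lamc1 was 0.478, 0.499 and 0.547 in WT and 0.128, 0.162, 0.348 and 0.271 in ALAS1/2-KO. All ALAS1/2-KO libraries were below WT, as they were for Nid1 over Lamc1 (1.842 to 2.857 in WT and 0.877 to 1.588 in ALAS1/2-KO). Both ratios share Lamc1, whose own log2 fold change was -0.30, so they are not separate results. Lum over Dcn per kilobase was 0.166 to 0.200 in WT and 0.123 to 0.157 in ALAS1/2-KO, which repeats the ratio to Dcn given above.

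Markers of other liver cells were present in the same libraries, and some moved with the stellate genes within ALAS1/2-KO. All 8 hepatocyte markers were listed, as the labelled cell type has it, and their summed level was 111188 to 118565 CPM in WT and 73504 to 78189 CPM in ALAS1/2-KO. The difference lay in Alb, the gene of serum albumin and the most abundant of the 8, at 93954 to 100209 CPM in WT and 49928 to 55979 CPM in ALAS1/2-KO (limma log2 fold change -0.87, adjusted p = 0.00606). With quantile normalization the log2 fold change of Alb was 0.28. Of the 7 other hepatocyte markers, Apoa1, Ttr, Cyp3a11, Cps1, Hnf4a and Serpina1c had log2 fold changes of 0.03 to 0.78, Asgr1 had one of -0.04, and none passed the test. All 15 stellate cell markers, each of them one of the 37 genes, were listed, at 329 to 614 CPM in WT and 73.4 to 381 CPM in ALAS1/2-KO. All 14 liver endothelial markers summed to 498 to 627 CPM in WT and to 117, 284, 531 and 409 CPM in ALAS1/2-KO libraries 1 to 4. All 12 Kupffer cell and macrophage markers summed to 1010 to 1375 CPM in WT and to 263, 773, 1685 and 1549 CPM in ALAS1/2-KO. The order of the 4 ALAS1/2-KO libraries was the same for stellate, endothelial and Kupffer markers, while the hepatocyte sum kept within a narrow range in that group. In WT the endothelial and Kupffer sums were highest in library 3, while 27 of the 37 genes were highest in WT library 1 and 10 in WT library 3. In ALAS1/2-KO libraries 3 and 4 the Kupffer sum stood at 141.7% and 130.3% of its WT mean. The stellate sum stood at 77.0% and 54.0% there. The part of the endothelial and Kupffer sums in the group difference was not tested. Stellate over Kupffer markers was 0.520, 0.325 and 0.395 in WT and 0.280, 0.201, 0.226 and 0.173 in ALAS1/2-KO, without overlap. Endothelial over Kupffer markers also had no overlap, at 0.456 to 0.493 in WT and 0.264 to 0.444 in ALAS1/2-KO. Stellate over endothelial markers was 1.110, 0.661 and 0.867 in WT and 0.629, 0.547, 0.718 and 0.654 in ALAS1/2-KO, with overlap.

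**Figure D5:**
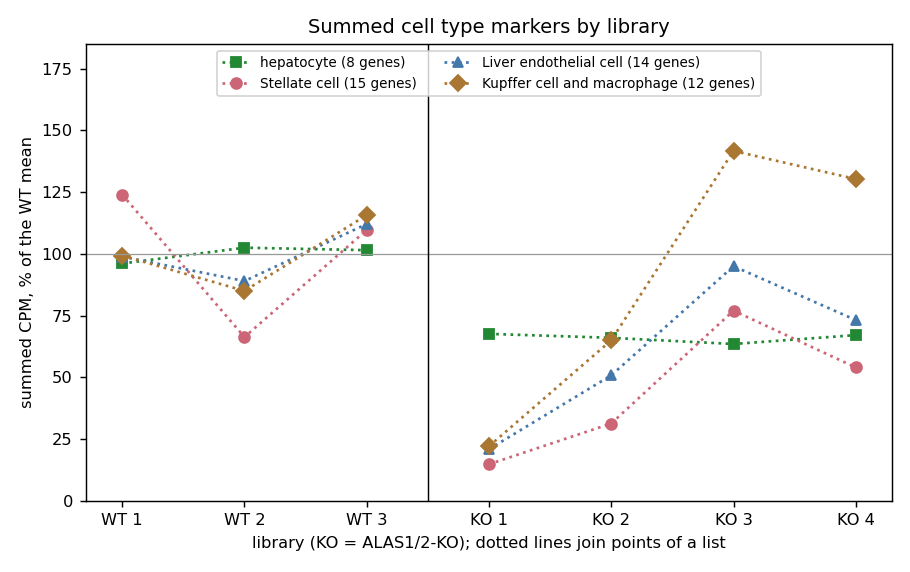
Summed CPM of the marker genes of 4 liver cell types in each library, as a percentage of the WT mean of that sum; dotted lines join the points of a list within a group and do not stand for an order in time. Stellate markers are at 14.8%, 31.3%, about 77% and 54.0% in ALAS1/2-KO libraries 1 to 4, and endothelial and Kupffer markers take the same order. The hepatocyte sum is mostly Alb.

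Sources of matrix other than stellate cells were thinly covered. Of 11 markers of activated myofibroblasts 7 were listed, with Acta2, Timp1, Lox and Cthrc1 not among the listed genes. Of these 7, Tagln, Col1a1, Col1a2 and Col3a1 are also among the 37 genes. The sum of the 7 was 42.0 to 65.5 CPM in WT and 9.10 to 35.8 CPM in ALAS1/2-KO. Of 10 portal fibroblast markers 3 were listed (Cd34, Entpd2 and Gas6, summing to 35.3 to 71.0 CPM in WT and 18.6 to 25.7 CPM in ALAS1/2-KO). Of 6 vascular smooth muscle markers 3 were listed, at 54.1 to 65.4 CPM in WT and 60.9 to 84.8 CPM in ALAS1/2-KO. The higher sum came from Mylk, a kinase of many cell types, which averaged 49.1 CPM in WT and reached a mean of 66.7 CPM in ALAS1/2-KO (adjusted p = 0.117, limma). The other listed ones were lower, Myh11 with a log2 fold change of -1.42 (adjusted p = 0.205) and Smtn, which was named after its values were seen, with one of -1.20 (adjusted p = 0.0326). Smtn missed the limma threshold without any WT library, without ALAS1/2-KO library 2 or 4 (adjusted p from 0.0669 to 0.111) and without trend (0.0508). Of 5 mesothelial markers and 4 markers of T and NK cells, 0 were listed. The markers listed for B cells (3 of 4) summed to 4.49 to 7.79 CPM in WT and 0.60 to 3.05 CPM in ALAS1/2-KO. Those of neutrophils (2 of 3) summed to 4.42 to 10.08 CPM in WT and 1.42 to 4.55 CPM in ALAS1/2-KO. Those of cholangiocytes (2 of 5) summed to 12.06 to 21.05 CPM in WT and 2.72 to 5.35 CPM in ALAS1/2-KO. The cholangiocyte difference lay in Spp1, which is also counted among the 7 myofibroblast markers. Sox9, the other one listed, overlapped between the groups, with a log2 fold change of -0.23 (limma adjusted p = 0.762).

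Other stellate cell genes, outside the 37, had a median close to theirs. Of 32 tested, 0 rose and 1 fell, 29 had a log2 fold change below 0 (52.0% of all genes), and their median was -1.27. Over all genes tested, 2.91% rose and 2.19% fell, the shares to set beside the calls in this list and the next ones. The one that fell was Nes, the intermediate filament nestin, with 5.64, 2.74 and 5.18 CPM in WT and 0.67, 0.89, 1.59 and 0.89 CPM in ALAS1/2-KO and a limma log2 fold change of -2.09 ± 0.37 (SE; adjusted p = 0.0220). Nes missed the threshold without WT library 1 (adjusted p = 0.0829), WT library 3 (0.0672) or ALAS1/2-KO library 4 (0.0556).

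Among the collagens outside the set, 2 of 10 tested rose and 0 fell, and their log2 fold changes had a median of 0.33. Col18a1, whose endostatin-bearing collagen is made by hepatocytes, read 633, 534 and 521 CPM in WT and 776, 922, 864 and 751 CPM in ALAS1/2-KO. The log2 fold change of Col18a1 was 0.56 ± 0.12 (SE; adjusted p = 0.0379) by limma. Col15a1, a related basement membrane collagen, averaged 3.46 ± 0.764 CPM in WT against 7.07 ± 1.57 CPM in ALAS1/2-KO, with a log2 fold change of 1.01 ± 0.24 (SE; adjusted p = 0.0483). Both passed in 1 of the 7 fits that each left out a library, the one without ALAS1/2-KO library 1, and the adjusted p in the other 6 was 0.0531 to 0.178 for Col18a1 and 0.0786 to 0.197 for Col15a1. Col15a1 also missed it with limma voom (adjusted p = 0.0731), without trend (0.0687) and with scaling that left out abundant and mitochondrial genes (0.0651). Col18a1 missed it without trend (0.0659), with quantile normalization (0.0701) and without ALAS1/2-KO libraries 1 and 2 (0.0528). Of 15 laminins and other basement membrane genes, which include these 2 collagens, 2 rose and 1 fell. Lama3, a laminin alpha chain, read 9.55, 7.10 and 9.87 CPM in WT and 4.35, 3.02, 3.09 and 2.94 CPM in ALAS1/2-KO, with a log2 fold change of -1.39 ± 0.20 (SE; adjusted p = 0.00972), and passed in 7 of the 7 fits without a library. ALAS1/2-KO library 1 had the highest Lama3 of its group, whereas that library was the lowest for 36 of the 37 genes.

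Enzymes that process and degrade matrix gave few calls. Of 22 collagen-modifying enzymes, 1 rose, Bmp1, which cleaves procollagen C-propeptides, from 129.9, 105 and 103 CPM in WT to 178, 172, 166 and 184 CPM in ALAS1/2-KO. The limma log2 fold change of Bmp1 was 0.64 ± 0.11 (SE; adjusted p = 0.0218), and it missed the threshold without WT library 2 (0.118), WT library 3 (0.0563) or ALAS1/2-KO library 4 (0.0556). Of 22 matrix proteases and inhibitors, 0 rose and 3 fell. These were the metalloproteases Adamts7 (log2 fold change -2.17 ± 0.39 (SE; adjusted p = 0.0284)) and Adamts6 (-1.24 ± 0.26 (SE; adjusted p = 0.0347)) and the plasminogen activator Plau (-1.86 ± 0.39 (SE; adjusted p = 0.0353)). When each library was left out in turn, Adamts7 kept the call in 2 of 7 fits, Adamts6 in 1 and Plau in 3. Their adjusted p elsewhere was 0.0531 to 0.118 for Adamts7, lost without any WT library or ALAS1/2-KO library 3 or 4. For Adamts6 it was 0.0567 to 0.154, lost without any library but ALAS1/2-KO library 1. For Plau it was 0.0769 to 0.162, lost without any WT library or ALAS1/2-KO library 4. Adamts6 also missed the threshold with quantile normalization (0.0796) and with CPM rescaled to the listed reads (0.0510), and Plau without trend (0.0572).

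Of 31 further proteoglycans and glycoproteins of the matrix, 0 rose and 2 fell. Spp1, osteopontin, which cholangiocytes and macrophages also make, read 10.9, 14.1 and 16.75 CPM in WT and 1.09, 3.51, 2.29 and 1.81 CPM in ALAS1/2-KO, with a limma log2 fold change of -2.73 ± 0.36 (SE; adjusted p = 0.00760). Spon2, a secreted spondin, read 7.83, 10.3 and 15.7 CPM in WT and 4.51, 2.71, 3.39 and 3.66 CPM in ALAS1/2-KO, with a log2 fold change of -1.60 ± 0.26 (SE; adjusted p = 0.0168). Of 23 matrix receptors and their adaptors, 0 rose and 2 fell. Fermt2, the integrin activator kindlin, had a log2 fold change of -0.94 ± 0.14 (SE; adjusted p = 0.0101), and Itga5, the fibronectin receptor's alpha chain, one of -0.60 ± 0.11 (SE; adjusted p = 0.0269). Without WT library 2 the adjusted p was 0.0535 for Spp1, 0.0875 for Spon2, 0.0713 for Fermt2 and 0.120 for Itga5. Itga5 also missed the threshold without WT library 3 (0.0606) or ALAS1/2-KO library 3 (0.0593) or 4 (0.0538), and without trend (0.0553), and its log2 fold change was -0.26 with CPM rescaled to the listed reads (adjusted p = 0.234).

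Of 30 genes of transforming growth factor beta and platelet-derived growth factor signalling, limma called 0 in either direction. At an unadjusted p under 0.05, 1 was higher and 4 were lower, beside 1429 higher and 1440 lower of all 12105 genes tested. Limma voom called 0. The most abundant were Klf10, an early response gene of the pathway, at 61.9 ± 15.2 CPM in WT against 90.9 ± 27.6 CPM in ALAS1/2-KO, and Tgfbi, a matrix protein it induces, at 59.3 ± 16.0 CPM in WT against 36.2 ± 22.1 CPM in ALAS1/2-KO. Tgfbi was lowest in ALAS1/2-KO library 1, and Klf10 was highest there. Of 26 genes of vitamin A storage and retinoid metabolism outside the set, 2 rose and 1 fell. Rdh16, a hepatocyte retinol dehydrogenase, rose from 31.2, 29.4 and 25.6 CPM in WT to 70.3, 60.2, 63.35 and 71.2 CPM in ALAS1/2-KO (log2 fold change 1.20 ± 0.11 (SE; adjusted p = 0.00154)) and passed in 7 of the 7 fits without a library. Ces1d, a carboxylesterase that can hydrolyse retinyl esters, had a log2 fold change of 0.90 ± 0.17 (SE; adjusted p = 0.0288), and Aldh1a1, a retinal dehydrogenase, one of -0.97 ± 0.21 (SE; adjusted p = 0.0381). Ces1d belongs to a cluster of near-identical genes, so its level is uncertain, and it lost the call without any WT library or ALAS1/2-KO library 3 or 4 (adjusted p from 0.0557 to 0.128). Aldh1a1 lost it without any library but ALAS1/2-KO library 1 (adjusted p from 0.0602 to 0.178). Without trend the adjusted p was 0.0544 for Ces1d and 0.0678 for Aldh1a1, with quantile normalization it was 0.0504 for Ces1d, and with CPM rescaled to the listed reads it was 0.0586 for Aldh1a1.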

How the data were processed

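RNA-seq of 7 libraries of isolated hepatocytes (3 WT, 4 ALAS1/2-KO, grouped by title and genotype label) was used. The tools named per the submitters' processing notes are cutadapt (adapter trimming) and HISAT2 (alignment), with build mm10; the sources used here give no version, counter or annotation. The authors deposited log2 CPM values with a small prior. Taken off the log2 scale and less a floor of 0.0676 CPM, 100% of values were whole reads within 0.01 reads, which gave CPM and reads. Library sizes behind the deposited values, relative to the listed reads, were 0.801 to 1.003 (WT) and 1.069 to 1.184 (ALAS1/2-KO). Fold changes include the prior, which understates them at low CPM.

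The 12105 genes that reached 1 CPM in 3 or more libraries were fitted on the deposited log2 values with limma 3.58.1 in R 4.3.3, with trend and robust moderation and no covariate. P-values were two-sided and Benjamini-Hochberg adjusted over all of them, with calls at an adjusted p under 0.05. The fit was tested on simulated data. Exon lengths, positions and overlaps came from a GENCODE annotation of GRCm38 (mm10), and promoters from RefSeq.

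The 39 genes and the other lists were chosen with earlier results of these data known. Every gene tested is described. Genes without overlap between groups, the 3 most abundant and the 3 largest fold changes among the rest have a value per library. From other lists, called genes are named (at most 4, by p), or else the 2 highest in CPM. The hepatocyte, portal fibroblast and smooth muscle markers (Alb, Gas6 and Smtn among them) were named after their values were seen. Alternatives were other offsets, filters, scalings and weights, voom, a replicate block, and leaving out libraries. No exact test of single values was needed; with 3 and 4 libraries its smallest p would be 0.0286 over 35 regroupings.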

Additional observations from a re-analysis of the deposited data

Results flagged for a closer look

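Lama3 and Smtn each had 1 ALAS1/2-KO library far from the others. Lama3 read 4.35 CPM in ALAS1/2-KO library 1 and 3.02, 3.09 and 2.94 CPM in libraries 2 to 4. Smtn read 5.07 CPM in ALAS1/2-KO library 3 and 2.75, 3.08 and 2.97 CPM in libraries 1, 2 and 4. In both, the gap of the highest value to the rest took more of the range than Dixon's 95% critical value for 4 samples, 0.829. All 4 ALAS1/2-KO values were below the lowest WT value, 7.10 CPM for Lama3 and 6.51 CPM for Smtn. Among 56 genes examined in this way chance flags about 1 in 20.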

How the results depend on the processing

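Over 20 alternative settings, 714 of 727 fold changes of the 37 genes kept their direction and stayed uncalled. Another 9 passed the threshold newly and 4 reversed. In the reported fit 0 of the 37 genes passed, so there was no call to lose. The reversals were Lamc1 (0.03) and Fn1 (0.12) with CPM rescaled to listed reads, Lamc1 (0.13) with array weights, and Lamc1 (0.10) without ALAS1/2-KO libraries 1 and 2 together. Of the genes outside the set, Alb turned to 0.28 with quantile normalization. The count of genes called lower was 0, but 2 with quantile normalization (Cygb and Ngfr), 1 without ALAS1/2-KO libraries 1 and 2 together (Cygb), and 0 to 4 when each library was left out in turn; 0 were called higher in any setting. Genes without overlap numbered 0 with CPM rescaled to listed reads, 6 of the 24 left with a mean of at least 5 CPM, and 10 to 33 when each library was left out. The median log2 fold change ran from -1.59 to -0.84 without single libraries. It was -0.62 with array weights, -0.61 without ALAS1/2-KO libraries 1 and 2, and -0.91 with CPM rescaled to listed reads, where the median of all genes was 0.32. Relative to a reference gene, 3 genes were lower with Bgn and 2 with Col14a1, against 6 with Dcn. Calls over all genes, 617 in the reported fit, were 306 without trend, 2001 with array weights, 2735 with CPM rescaled to listed reads, 1130 without ALAS1/2-KO libraries 1 and 2, and 100 to 802 without single libraries. The 802 calls were those without ALAS1/2-KO library 1. The cause of these changes was not tested. Replicate numbers were shared by the groups, and deviations of same-numbered libraries correlated at -0.03, 0.05 and 0.18. Those of differently numbered libraries correlated at -0.33 to 0.36. No label says that same-numbered libraries were prepared together, and these correlations cannot decide it. With a replicate block 72 genes were called, 0 of the 37, and the median log2 fold change of the 37 was -1.40. Of the called genes outside the 37 that were refitted, only Rdh16 and Spp1 kept their call. The lowest levels rest on few reads, 7 for Pdgfra in ALAS1/2-KO library 1.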
